A study of Mus musculus with 22 samples.

Results

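The 10 genes described here belong to the pulmonary surfactant system of the mouse and were taken as a fixed list of names: Sftpa1, Sftpb, Sftpc, Sftpd, Lamp3, Abca3, Napsa, Slc34a2, Lyz1 and Etv5. All 10 were found among the 31053 entries of the deposited matrices. In build GRCm38, Sftpa1 (chr14:41131782-41136452) and Sftpd (chr14:41172214-41185149) lie near each other and Sftpc (chr14:70520949-70524081) farther along the same chromosome, whereas Sftpb is at chr6:72304610-72314371. The others are Lamp3 (chr16:19653378-19706375), Etv5 (chr16:22381309-22439719), Abca3 (chr17:24351950-24410201), Napsa (chr7:44572380-44586862), Slc34a2 (chr5:53038081-53071664) and Lyz1 (chr10:117287797-117292868). Annotated genes on the opposite strand overlap Abca3, Napsa and Slc34a2. Levels are given as unique molecular identifiers (UMIs, captured transcripts) per 1000000 UMIs (CPM), either over a whole library or over the barcodes of 1 cell class. Each UMI counts the 3′ end of a transcript, so a long transcript is not counted more often than a short one.

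The 22 single-cell libraries came from mice without tumours that all carried Prom1-CreERT2 and Rosa26ZSG, a tamoxifen-inducible recombinase driven by the Prom1 promoter and a ZsGreen lineage reporter. The mice were labelled wt, het or null for Nalcn, which encodes a sodium leak channel, and het and null therefore describe a conditional deletion in cells that use the Prom1 promoter and not a germline loss. The tissue libraries pooled hashtagged kidney, liver, lung and stomach with epididymis in males or uterus in females, from mice of 551 to 654 days, and comprised 5 wt, 2 het and 2 null libraries. The ntCZC libraries held ZsGreen-positive cells sorted from blood, from mice of 551 to 649 days, and comprised 2 wt, 4 het and 4 null libraries. A single wt library of peripheral blood mononuclear cells (PBMC) came from a mouse of 120 days. A pair of tissue libraries whose title and strain entry named different genotypes stayed without a group.

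Pulmonary surfactant is the film of lipid and protein that lowers surface tension in the air spaces. It is made by alveolar type 2 cells, packed into lamellar bodies and secreted. Surfactant proteins B and C are small hydrophobic proteins that spread the lipid film, whereas surfactant proteins A and D are collectins that bind microbes. ABCA3 carries phospholipid into the lamellar body, and napsin A, a protease encoded by Napsa, takes part in the processing of proSP-B and proSP-C. LAMP3 marks the lamellar body membrane, SLC34A2 is the phosphate transporter of type 2 cells, LYZ1 is a lysozyme and ETV5 is a transcription factor needed to keep type 2 cells as such. Airway club cells are also known to make surfactant proteins A, B and D but not C.

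The 9 tissue libraries with a genotype held 143502 barcodes and from 8571019 to 139793927 UMIs each, and the 10 ntCZC libraries held 2501 barcodes and from 161541 to 2600526 UMIs each. Barcodes with fewer than 200 genes or with over 25% of their UMIs from mitochondrial genes were set aside. A remaining barcode was given a class when at least 3 of the 10 markers of that class had a UMI and at least 2 more than those of any other of the 24 classes. None of the 10 genes was among the markers. Of the 143502 tissue barcodes 72758 passed (50.7%), and 46351 of these had a class. No doublet caller was run. The organ hashtags were left unread, and the organ behind a barcode is therefore unknown. Tissue null replicate 3, 1 of the 2 null tissue libraries, takes its genotype from its strain entry alone, since its title names none. It was labelled female but held epididymal and Y-linked transcripts, and the counts of calls between genotypes and between sexes were repeated without it. ntCZC wt replicate 3 (161541 UMIs) and tissue wt replicate 5 (8571019 UMIs) were the shallowest libraries of their kinds. The labels name no animals, so the p-values refer to the spread between libraries, which may be technical in part. In fits of few libraries, that spread is estimated largely over all genes together and not from the gene in question.

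The first comparison asked which surfactant genes separate organs from sorted blood. Sftpc, the transcript of surfactant protein C, had 154584 UMIs in the tissue libraries and none in the ntCZC libraries. Its library levels were 182.4, 563.9, 112.7, 137.2 and 26.6 CPM in tissue wt replicates 1 to 5, 518.5 and 60.1 CPM in the het libraries, and 372.2 and 286.8 CPM in null replicates 2 and 3. All 9 tissue libraries therefore lay above all 10 ntCZC libraries, although the tissue libraries themselves differed by more than an order of magnitude. Pooled over libraries, Sftpc was at least 1483-fold higher in tissue than the level that 3 counts would give in ntCZC. In bulk sums of this kind, fewer type 2 cells and less RNA per cell cannot be told apart.

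The other transcripts best known from type 2 cells followed the same division. Sftpb (3.03 to 34.9 CPM in tissue), Sftpd (4.84 to 16.2 CPM) and Slc34a2 (2.33 to 17.4 CPM) had no UMI in any ntCZC library, which placed tissue at least 81.1-fold, 39.9-fold and 51.0-fold higher in the pooled counts. Sftpa1 ran from 4.43 to 74.1 CPM in tissue and had 1 UMI in ntCZC, a ratio of 543 with a 95% counting interval of 97.5 to 21464. Lamp3 had 1272 UMIs in tissue and 2 in ntCZC, and 1 of these fell in a library of 371378 UMIs, so that its ranges overlapped (0.486 to 3.96 CPM in tissue, 0 to 2.69 CPM in ntCZC). The PBMC library held no UMI of Sftpa1, Sftpb, Sftpc, Sftpd or Slc34a2 and 1 UMI of Lamp3.

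Not every surfactant gene was higher in organs than in blood. Napsa was lower in tissue, at 56.4 to 184.8 CPM with a median of 108.4 CPM, against 18.6 to 843.7 CPM with a median of 661.9 CPM in ntCZC. Lyz1 was also lower, with a median of 5.87 CPM (2.67 to 61.8 CPM) in tissue against 59.4 CPM (6.19 to 220.4 CPM) in ntCZC. Abca3 (39.8 to 117.8 CPM in tissue, 6.19 to 59.5 CPM in ntCZC) and Etv5 (6.90 to 27.7 CPM in tissue, 0 to 12.6 CPM in ntCZC) differed less and their ranges overlapped. The shallow ntCZC wt replicate 3 gave the lowest ntCZC value of Napsa, Abca3, Lyz1 and Etv5.

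**Figure D1:**
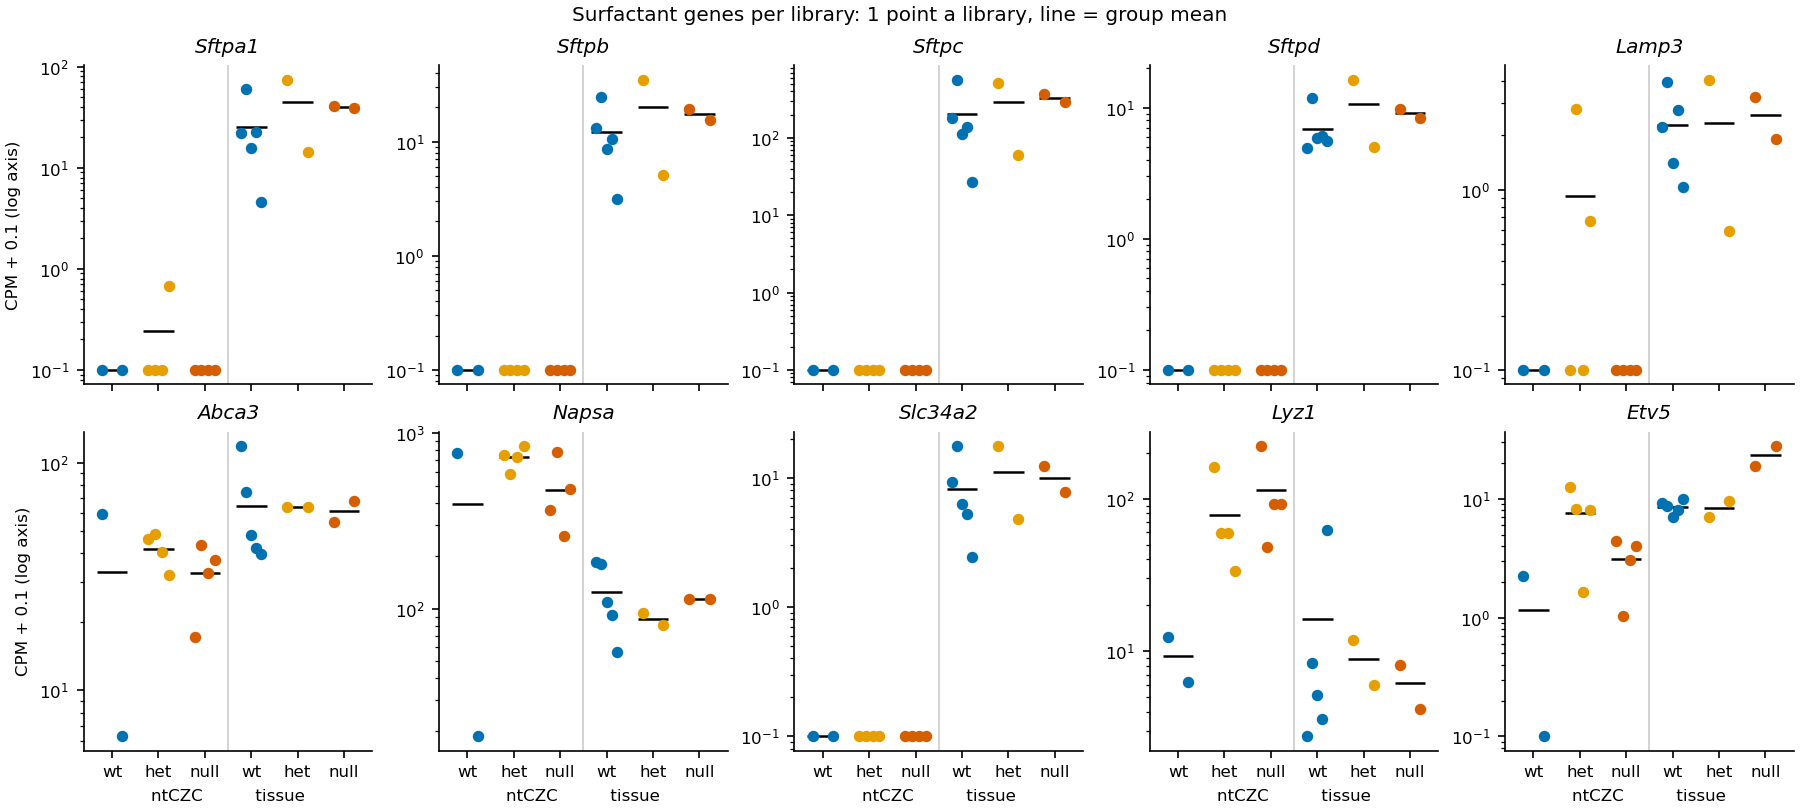
CPM + 0.1 on a log axis for each of the 10 genes, with 1 point a library, grouped by genotype within ntCZC (left of the grey line) and tissue (right), and a black line at each group mean. Sftpa1, Sftpb, Sftpc, Sftpd and Slc34a2 are at or near 0 in ntCZC, whereas Napsa and Lyz1 lie mostly higher there than in tissue.

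In the edgeR quasi-likelihood fit over all genes, 7 of the 10 surfactant genes passed the filter on low counts. These were called at an adjusted p under 0.05, 5 higher and 2 lower in tissue, but Sftpa1, Sftpc and Sftpd had at most 1 UMI in ntCZC and passed only through tissue, where they are high, so that the count is no support for a direction. Of the 10681 genes tested, 63.8% were called in either direction, 37.9% higher and 25.8% lower in tissue, so a call as such sets these genes little apart. The log2 change was -2.16 (SE 0.30, adjusted p = 3.07e-06) for Napsa and -2.61 (SE 0.59, adjusted p = 0.000627) for Lyz1. It was 1.69 (SE 0.39, adjusted p = 0.000859) for Etv5 and 0.88 (SE 0.17, adjusted p = 0.00017) for Abca3. When only passing barcodes were summed, the change of Abca3 was 0.07 and was no longer called (adjusted p = 0.632), and 62.4% of the Abca3 UMIs of tissue lay in barcodes that did not pass. Sftpa1, Sftpc and Sftpd were called higher in tissue, but their fitted changes are set against counts of 0 or 1 and are no measure of size. Sftpb, Lamp3 and Slc34a2 did not pass the filter.

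Within tissue, the surfactant genes were followed to the alveolar type 2 class, which was defined by Cxcl15, Chil1, Cldn18, Sfta2, Hc, Egfl6, Ppp1r14c, Acoxl, Lgi3 and Muc1. It held 171 barcodes in 8 of the 9 libraries, 79 of them (46.2%) in tissue wt replicate 2, with a median of 3672 UMIs and 1398 genes. In the median type 2 barcode, Sftpc made up 12.996% of all UMIs (5th to 95th percentile 4.74 to 21.4%), and 1 of the 171 barcodes had none. The 4 surfactant proteins together gave 14.2% of the UMIs of the class. Only 3 of the 171 barcode sequences were also present in another tissue library, and none was named type 2 in both. The gate left 36 barcodes just outside that a looser one would name, with 82603 CPM of Sftpc, whereas the 30 just inside had 66517 CPM and the 141 well inside had 135416 CPM.

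The levels of the class were close to one another across libraries for most of the genes. Sftpc was at 125960, 111772 and 99687 CPM in tissue wt replicates 1, 2 and 4, 177189 CPM in het replicate 1, and 111225 and 145078 CPM in null replicates 2 and 3, the 6 libraries with at least 10 type 2 barcodes. The mean over these 6 libraries was 13660 ± 2423 CPM (SD, n = 6) for Sftpa1, 5394 ± 1150 CPM for Sftpb, 3782 ± 1267 CPM for Slc34a2 and 2441 ± 502 CPM for Sftpd. Lamp3 (1194 ± 364 CPM), Napsa (1166 ± 232 CPM), Abca3 (752 ± 253 CPM) and Etv5 (400 ± 82.5 CPM) were lower. Sftpc thus exceeded the next gene, Sftpa1, in every one of these libraries. Lyz1 was the exception to this evenness, at 875 ± 1010 CPM and with no UMI in tissue wt replicate 4.

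The type 2 class was then compared with T cells of the same libraries, a class not known to make surfactant. Only 2 libraries held at least 20 barcodes of both classes, tissue wt replicate 2 and tissue het replicate 1. The p-values of this fit therefore rest largely on spread shared over all genes. All 10 genes were tested and were called higher in type 2 cells, in a fit where 16.6% of 8691 genes were called and 10.0% were higher in type 2 cells. Most of them passed the filter only through type 2 cells, where they are high, and the count is a description only. T cell UMIs numbered 1 for Lamp3, 5 each for Sftpd and Lyz1, 7 for Slc34a2, 19 for Sftpb, 24 for Etv5 and 33 for Sftpa1. Set against so few T cell UMIs, the fitted changes of these genes are no measure of size and are not read further. In type 2 cells Lamp3 had 464 UMIs, Slc34a2 1802, Lyz1 691, Sftpb 2317, Etv5 183 and Sftpa1 5995. The fitted change of Sftpc, which had 298 UMIs in T cells, was 11.80 (SE 1.10, adjusted p = 8.48e-08).

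Napsa and Abca3 were separated least, with log2 changes of 5.01 (SE 0.62, adjusted p = 3.99e-06) and 4.93 (SE 0.56, adjusted p = 1.15e-06). In pooled counts of these 2 libraries, Sftpc was 2120 times as high in type 2 as in T cells (95% counting interval 1893 to 2383), while Napsa was 21.6 times (19.1 to 24.6) and Abca3 23.5 times (20.1 to 27.7). All 6 libraries with at least 10 type 2 barcodes were then entered, a choice made after the barcode numbers were seen. The 9 genes tested were all called, beside 1574 of all 4008 genes, and Lyz1 did not pass the filter. Sftpd and Lamp3 had 5 T cell UMIs each in these libraries and Slc34a2 had 12, so the count is a description only. With kidney proximal tubule as the reference class, the change of Napsa was 0.98 and was not called (adjusted p = 0.188). The other 9 genes were called, a count that is likewise a description only.

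The share of barcodes with a UMI was compared after each barcode was thinned to 1000 UMIs, which left out 11 of 171 type 2 and 572 of 4142 T cell barcodes. Sftpc was seen in 99.4% of thinned type 2 barcodes and in 3.84% of thinned T cells (99.4% and 7.07% unthinned, at median depths of 3672 and 1802 UMIs). Sftpa1 was seen in 98.8% against 0.616%, Slc34a2 in 91.9% against 0.0840% and Lamp3 in 64.4% against 0.0840%. Napsa (64.4% against 2.72%), Abca3 (56.9% against 2.89%) and Etv5 (33.8% against 0.616%) followed, with Napsa in the same number of type 2 barcodes as Lamp3. Lyz1 stood apart with 13.8% against 0.0840%.

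The DNA before the starts of 4 of these genes is shown because Sftpa1 and Sftpb were high in both type 2 and airway club cells, whereas Lamp3 and Slc34a2 were high in type 2 cells alone among the lung classes. Each line holds the 250 bases before the RefSeq start (build GRCm38.p6), read 5′ to 3′ on the strand of the gene. Capitals mark CTCAAG, the core letters of an NKX2-1 site, or TGTTTNC, those of a FOXA site, searched on both strands.
Sftpa1, chr14:41131538-41131787, plus strand: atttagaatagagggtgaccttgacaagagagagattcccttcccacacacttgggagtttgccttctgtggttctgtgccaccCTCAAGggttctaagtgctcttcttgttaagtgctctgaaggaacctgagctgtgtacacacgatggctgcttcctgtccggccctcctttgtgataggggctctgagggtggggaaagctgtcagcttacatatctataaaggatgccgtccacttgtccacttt
Sftpb, chr6:72304360-72304609, plus strand: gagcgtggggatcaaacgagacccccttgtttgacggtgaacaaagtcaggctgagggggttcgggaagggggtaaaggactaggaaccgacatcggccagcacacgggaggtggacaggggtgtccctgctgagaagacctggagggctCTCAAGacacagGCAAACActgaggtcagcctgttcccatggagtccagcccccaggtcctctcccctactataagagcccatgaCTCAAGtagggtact
Lamp3, chr16:19706366-19706615, minus strand: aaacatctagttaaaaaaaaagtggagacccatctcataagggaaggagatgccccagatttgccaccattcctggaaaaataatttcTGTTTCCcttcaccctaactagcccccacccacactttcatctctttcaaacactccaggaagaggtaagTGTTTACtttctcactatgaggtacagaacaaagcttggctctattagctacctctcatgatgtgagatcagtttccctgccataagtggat
Slc34a2, chr5:53049103-53049352, plus strand: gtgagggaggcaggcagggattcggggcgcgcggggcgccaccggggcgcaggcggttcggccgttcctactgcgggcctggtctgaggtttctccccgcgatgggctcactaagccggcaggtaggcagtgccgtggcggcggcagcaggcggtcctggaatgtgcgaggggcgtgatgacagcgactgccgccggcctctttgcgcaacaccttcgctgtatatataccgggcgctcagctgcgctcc

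Sftpb held CTCAAG at 100 to 95 and at 15 to 10 bases before its start and TGTTTNC at 88 to 82 bases on the opposite strand. Sftpa1 held CTCAAG once, 166 to 161 bases before its start, and Lamp3 held TGTTTNC at 162 to 156 and at 92 to 86 bases. Slc34a2 held neither. CTCAAG occurs in 13.3% and TGTTTNC in 17.8% of 32851 promoter windows of this length, so single matches are common and are a description only. The start that RefSeq gives for Slc34a2 lies inside the longer gene of the annotation used for coordinates (chromosome 5, 53038081 to 53071664). Promoter sequences were found for 7 of the 10 genes, and those of Sftpc, Sftpd and Napsa are not shown.

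Outside type 2 cells, Sftpa1, Sftpb and Sftpd were also found at high levels in airway club cells, the secretory cells of the bronchioles. In the club class (281 barcodes, 4 libraries with at least 20), Sftpa1 was at 930 ± 546 CPM (SD, n = 4), Sftpb at 388 ± 116 CPM and Sftpd at 167 ± 86.6 CPM. All 4 libraries lay below every type 2 library and above every library of the next class, ciliated cells (61.8 ± 61.1 CPM of Sftpa1, SD, n = 8). For Sftpd, however, the alveolar type 1 class reached 114 CPM, above the lowest club library at 84.5 CPM. Against T cells, 6 of the 10 genes could be tested in club cells and 5 were called higher, beside 32.8% of all 4510 genes. Sftpa1, Sftpb and Sftpd had 46, 36 and 8 UMIs in T cells of all tissue libraries and passed the filter through club cells. Their calls and fitted changes are therefore not read further, and the count is a description only. The log2 change of Abca3 was 2.42 (SE 0.41, adjusted p = 2.68e-06). Without the barcodes of the highest UMI counts, the change of Abca3 was 0.94 and was not called (adjusted p = 0.613). Sftpc was also called (1.94, SE 0.40, adjusted p = 9.69e-05), but its club level of 89.0 ± 87.8 CPM overlapped those of endothelial cells and alveolar macrophages, and it was not called with a stricter gate (1.01, adjusted p = 0.149). Napsa was not called in club cells (0.09, adjusted p = 0.897).

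The make-up of the surfactant transcripts therefore differed between lung epithelial classes. Of the Sftpa1 and Sftpc UMIs summed, Sftpa1 made up 96.1% in club cells (95% exact interval 95.1 to 96.9%), 71.9% in ciliated cells (68.0 to 75.6%) and 8.89% in type 2 cells (8.71 to 9.07%). These intervals cover counting error only. Ciliated cells also ranked next after club cells for Sftpb, at 53.2 ± 49.9 CPM, and Sftpd, at 29.5 ± 23.9 CPM (SD, n = 8), and both ranges began at 0. Whether single ciliated barcodes also held club cell RNA was not tested.

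Alveolar type 1 cells, the thin cells of gas exchange, carried little of the surfactant genes. Among the 191 barcodes of the type 1 class there were 126 UMIs of Sftpc, 97 of them in 1 barcode, 5 each of Sftpa1 and Sftpb, and 25 of Sftpd, 21 of them in tissue wt replicate 2. Lamp3, Lyz1 and Etv5 had no UMI in the 5 libraries with at least 20 type 1 barcodes. Abca3 was the only gene of the 10 that passed the filter, and it was called higher than in T cells (log2 change 1.96, SE 0.33, adjusted p = 0.000167) in a fit where 47.9% of 3107 genes were called. Its level was 117 ± 38.4 CPM (SD, n = 5).

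**Figure D2:**
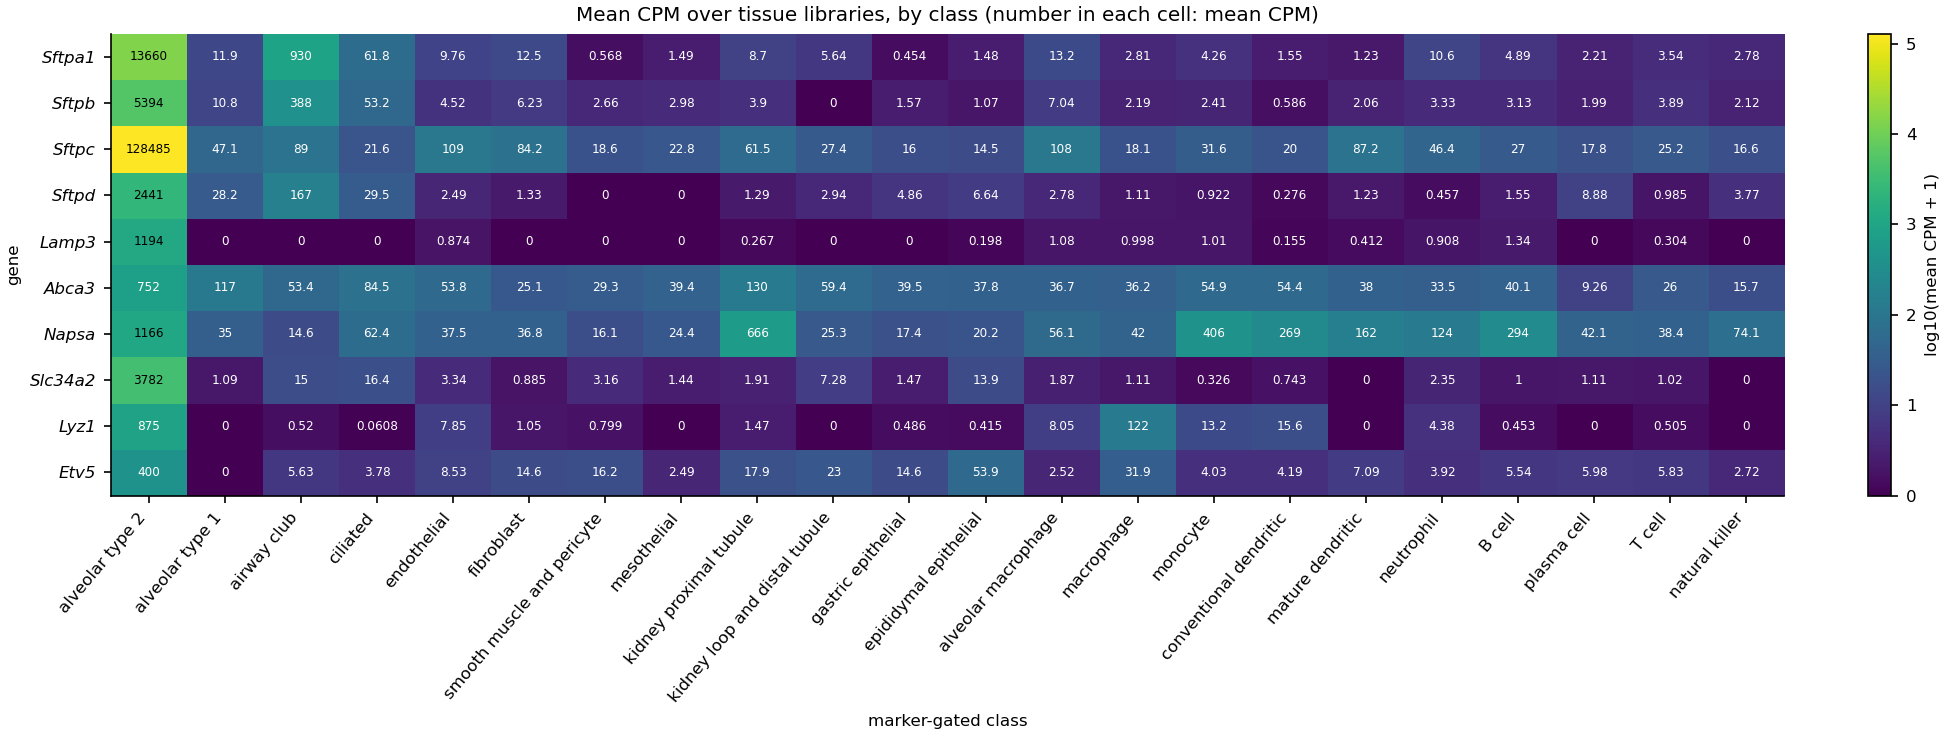
Mean CPM over tissue libraries of each gene (rows) in each class with libraries to average (columns), coloured by log10(mean CPM + 1). The alveolar type 2 column is the highest for all 10 genes, Sftpa1, Sftpb and Sftpd have a second peak in airway club cells, and Napsa and Abca3 reach into kidney and leukocyte classes.

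In leukocyte and kidney classes, which are not known to express Sftpc, its level was low but not 0 in tissue. It ran from 0 to 78.1 CPM with a median of 21.0 CPM over 8 libraries in T cells, from 2.62 to 76.0 CPM (median 18.4) in B cells and from 5.28 to 44.6 CPM (median 17.0) in macrophages. The proximal tubule class was at 8.62 to 340 CPM with a median of 18.8 CPM, and its highest value, in tissue null replicate 3, rested on 1 barcode with 310 Sftpc UMIs. Without barcodes of 50 or more Sftpc UMIs the range of the tubule class was 8.62 to 42.4 CPM. Neutrophils were at 0 to 132 CPM with a median of 30.7 CPM. Relative to the Sftpc level of the same library, the median was 8.57% in T cells, 10.7% in B cells and 7.66% in proximal tubule. It was 13.8% in neutrophils and 11.2% in monocytes, where single libraries reached 96.1% and 48.5%.

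The same leukocyte classes held no Sftpc UMI in blood. The ntCZC libraries had 0 Sftpc UMIs among 6245521 UMIs of the monocyte class, which allows up to 0.480 CPM, and 0 among 1883107 UMIs of the B cell class, which allows up to 1.59 CPM. Tissue monocytes had 228 Sftpc UMIs (42.3 CPM pooled) and tissue B cells 439 (36.0 CPM pooled). In the PBMC library, 0 Sftpc UMIs among 629303 UMIs of the T cell class allow up to 4.77 CPM, against 40.2 CPM pooled in tissue T cells. These limits cover counting error only.

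Across 8 tissue libraries the Sftpc level of the T cell class was set against that of the rest of the library. Pearson's r was 0.728 (exact permutation p = 0.0185) and Spearman's rho 0.762 (exact permutation p = 0.0368), each with an adjusted p of 0.110 over the 6 tests of this family, so the relation did not pass the correction. Without the 2 libraries farthest from the median, tissue wt replicate 2 and tissue het replicate 1, r was 0.644. For B cells r was 0.588 (exact permutation p = 0.109) and rho 0.500 (exact permutation p = 0.216). For proximal tubule, where 1 barcode set the highest value, r was 0.0966 (exact permutation p = 0.876) and rho 0.690 (exact permutation p = 0.0694). The labels give no batch within which it could be repeated.

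The composition of this low level lay nearer to that of type 2 cells than to that of club cells. Sftpa1 made up 12.5% of the Sftpa1 and Sftpc UMIs in T cells, B cells, monocytes and macrophages together (95% exact interval 10.9 to 14.3%), 12.2% in proximal tubule (10.2 to 14.4%) and 9.31% in endothelial cells (8.40 to 10.3%). The first 2 intervals lie above that of type 2 cells. Sftpb made up 8.67% of the Sftpb and Sftpc UMIs in those 4 leukocyte classes (7.28 to 10.2%) against 3.73% in type 2 cells (3.61 to 3.85%). Whether free RNA or shared droplets gave these UMIs was not tested.

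Alveolar macrophages, which take up and break down surfactant in the air spaces, had more Sftpc than T cells. Endothelial cells, which were not tested against T cells, had a median of 66.4 CPM over 9 libraries. The alveolar macrophage level was 32.6 to 255 CPM with a median of 58.7 CPM over 9 libraries. Sftpa1 had 536 UMIs in the class and 46 in T cells, and it passed the filter through alveolar macrophages, so its call is not read further. Against T cells the log2 change was 2.11 (SE 0.26, adjusted p = 8.32e-06) for Sftpc and 0.63 (SE 0.17, adjusted p = 0.00529) for Napsa. Abca3 was not called (0.36, adjusted p = 0.142). With a looser gate the change of Napsa was 0.36 and was not called (adjusted p = 0.104). In that fit 65.0% of 9468 genes were called. Of the 4337 Sftpc UMIs of the class 27.2% lay in 6 barcodes with 50 or more, and without these the range was 32.6 to 141 CPM. Sftpa1 made up 10.999% of the Sftpa1 and Sftpc UMIs (10.1 to 11.9%). RNA taken up with surfactant and RNA carried in the droplet cannot be told apart here.

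**Figure D3:**
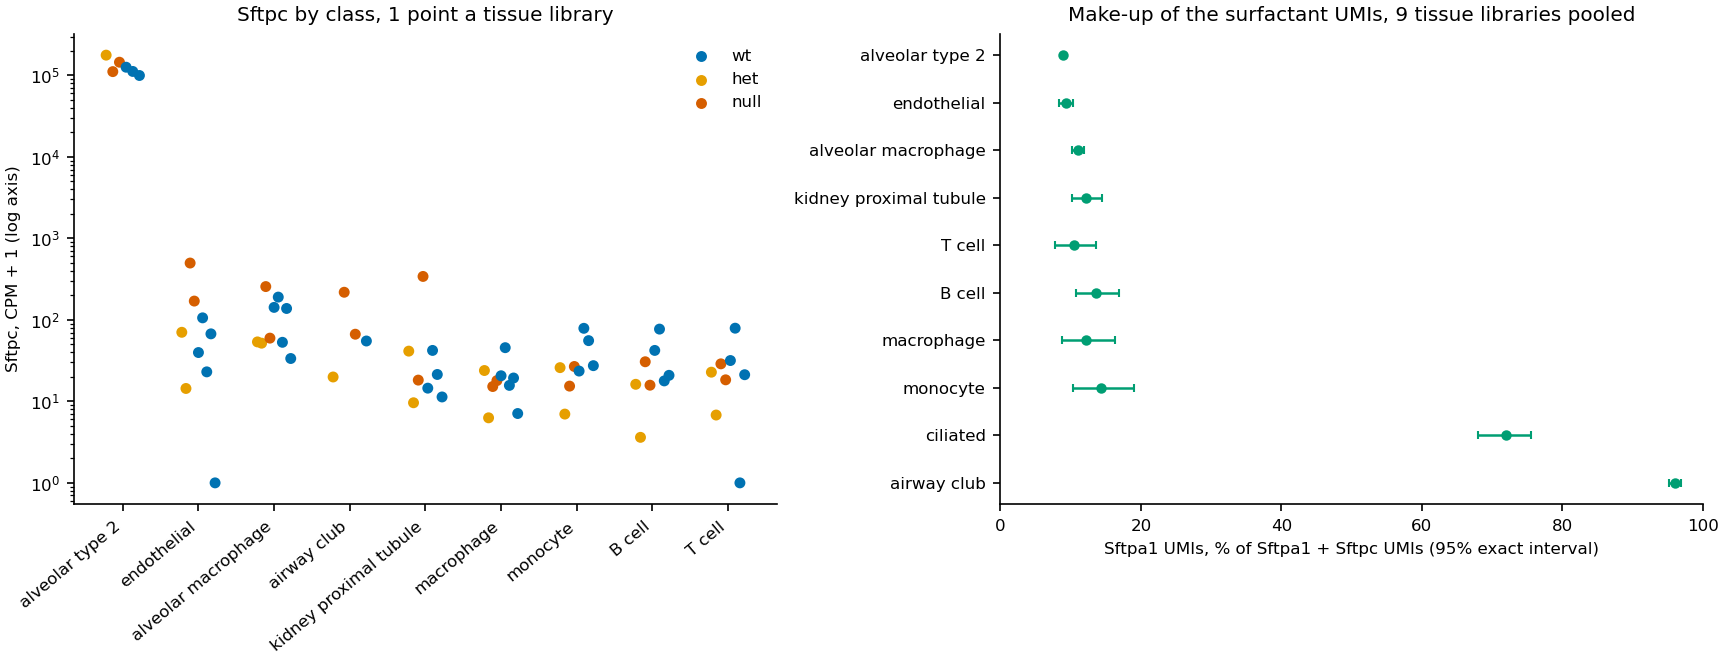
Left, Sftpc as CPM + 1 on a log axis in 9 classes, with 1 point a tissue library coloured by genotype (at least 20 barcodes, 10 for type 2). Right, Sftpa1 as a percentage of Sftpa1 and Sftpc UMIs with its 95% exact interval, pooled over 9 tissue libraries, near 9 to 14% in all classes shown except ciliated (71.9%) and club cells (96.1%).

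The named class did not hold all cells with high Sftpc. Of the 154584 tissue UMIs, 56.8% were in the type 2 class, 18.5% in barcodes that did not pass and 16.9% in passing barcodes without a class. A total of 116 failed and 63 unclassed barcodes had 50 or more Sftpc UMIs, as did 168 of the 171 type 2 barcodes and 21 barcodes of other classes, the last holding 2.43% of the UMIs. For Lamp3 and Slc34a2 the class held 55.5% and 48.1% of the UMIs, for Sftpa1 45.4% with a further 10.4% in club cells. It held 1.201% of the Napsa and 1.59% of the Abca3 UMIs.

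Napsa had its widest use outside the lung. In kidney proximal tubule it was at 314 to 1443 CPM, with a mean of 666 ± 393 CPM (SD, n = 8), which overlapped the type 2 level, and the class held 23.5% of all Napsa UMIs of tissue. Wt replicates 1, 2 and 3 were the highest tubule libraries, at 1443, 772 and 1006 CPM, and the remaining 5 lay between 314 and 548 CPM. Against T cells Napsa was called higher in tubule (log2 change 4.01, SE 0.30, adjusted p = 1.25e-07), and so was Abca3 (2.33, SE 0.21, adjusted p = 4.47e-07), in a fit where 70.3% of 7829 genes were called. Sftpc was not (0.34, SE 0.54, adjusted p = 0.600). In the loop and distal tubule class none of the 10 genes passed the filter, while 48.9% of its 2847 genes were called.

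Several leukocyte classes also carried Napsa. In tissue its mean was 406 ± 105 CPM in monocytes and 124 ± 35.2 CPM in neutrophils (SD, n = 8), which were not tested against T cells. It was called higher than in T cells in B cells (log2 change 2.90, SE 0.17, adjusted p = 3.91e-09), conventional dendritic cells (2.99, SE 0.19, adjusted p = 2.61e-09) and mature dendritic cells (1.96, SE 0.24, adjusted p = 7.55e-06). All genes called in those fits amounted to 31.8%, 56.9% and 37.5%. In macrophages, where 60.9% of 6778 genes were called, none of the 3 genes tested was, at adjusted p of 0.442 for Sftpc, 0.0564 for Abca3 and 0.337 for Napsa. Abca3 was called in conventional dendritic cells (1.06, SE 0.21, adjusted p = 0.000453) and was just over the threshold in B cells (0.49, SE 0.19, adjusted p = 0.0556). Sftpc was called in mature dendritic cells (1.85, SE 0.41, adjusted p = 0.00181), where 73.9% of its 153 UMIs lay in 1 barcode. Lamp3, a gene known from human mature dendritic cells, had 1 UMI in the 240 barcodes of that class.

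In epididymal epithelium 4 of the 10 genes were tested, and Etv5 and Abca3 were called higher and Napsa and Sftpc lower than in T cells, whereas in gastric epithelium 1 of 2 was called. Napsa was called lower than in T cells in gastric cells (-1.15, SE 0.41, adjusted p = 0.0345, beside 52.3% of 5169 genes) and in epididymal cells (-0.60, SE 0.22, adjusted p = 0.0374, beside 59.4% of 9373 genes). Both directions turned when the barcodes of the highest UMI counts were left out, to 1.72 and 0.96. Sftpc was called lower in epididymal cells (-0.80, SE 0.30, adjusted p = 0.0381) and turned likewise to 1.03. These 3 calls were also lost when one or another single library was left out. Abca3 was higher in epididymal cells (1.04, SE 0.27, adjusted p = 0.00684), where Slc34a2 was at 13.9 ± 5.39 CPM (SD, n = 6).

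B cell and monocyte classes, gated by the same markers, were next compared between organs and blood. B cells of the 6 ntCZC libraries with at least 20 such barcodes had 540 to 1597 CPM of Napsa with a median of 767 CPM, and those of 8 tissue libraries had 198 to 380 CPM with a median of 308 CPM. Of the ntCZC libraries, het replicates 1 and 3 were highest, at 1597 and 1351 CPM, and the others were at 540 to 865 CPM. Depth per barcode was not matched between libraries. Monocytes had 895 to 1094 CPM (median 972) in 7 ntCZC libraries and 293 to 622 CPM (median 411) in 8 tissue libraries. Among these libraries no library of one kind overlapped the other in either class. ntCZC null replicate 3, left out with 13 monocytes, was at 605 CPM. The log2 change of tissue against ntCZC was -1.77 in B cells (SE 0.28, adjusted p = 0.000173) and -0.98 in monocytes (SE 0.14, adjusted p = 1.99e-05). All genes called amounted to 35.0% of 5078 in B cells and 36.4% of 5413 in monocytes. Abca3, the other gene tested, was not called in B cells (0.26, adjusted p = 0.576) or monocytes (-0.01, adjusted p = 0.980). The PBMC library had 403 CPM of Napsa in B cells and 861 CPM in monocytes. ntCZC cells were sorted for ZsGreen and tissue cells were not, so sort and site cannot be told apart. The monocyte class takes markers of classical (Ccr2, Ly6c2) and nonclassical (Treml4, Cd300e) cells together. Whether its mix of these differed between organs and blood was not tested.

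**Figure D4:**
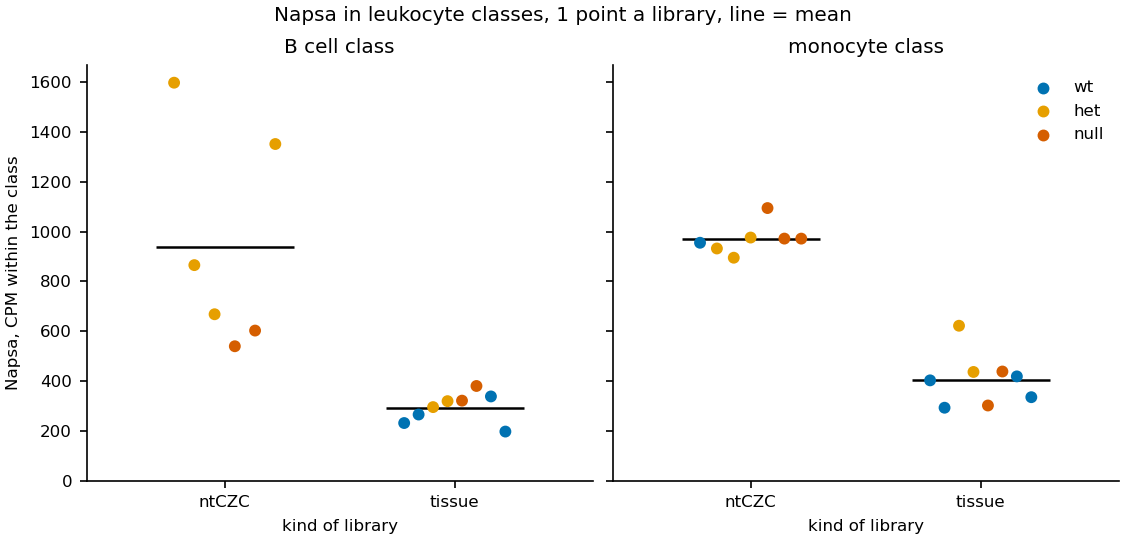
Napsa CPM within the B cell class (left) and the monocyte class (right), with 1 point a library coloured by genotype and a line at the mean. Only libraries with at least 20 barcodes of the class are shown, and among these every ntCZC library lies above every tissue library.

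Napsa in macrophages went the other way. It was at 0 and 1.89 CPM in the 2 ntCZC libraries with at least 20 macrophages and at 12.0 to 110 CPM with a median of 30.6 CPM in 9 tissue libraries, which was not tested. The mean level in tissue T cells was 38.4 ± 14.5 CPM (SD, n = 8).

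Lyz1 was unevenly spread within the type 2 class. A UMI of Lyz1 was present in 30 of the 171 barcodes (17.5%, 95% exact interval 12.2 to 24.1%), and the 17 highest barcodes held 96.4% of its 751 UMIs. For the other 9 genes the 17 highest barcodes held 22.8 to 31.9%, and for all UMIs 23.1%. A single barcode of tissue het replicate 1 had 138 Lyz1 UMIs, and barcodes with Lyz1 were seen in 6 of the 8 libraries. The positive barcodes had a median of 4804 UMIs and the others 3560. Lyz2, the lysozyme of macrophages that type 2 cells also express, was at 17873 CPM in barcodes with Lyz1 and 15825 CPM in those without, and Sftpc was at 135080 and 120537 CPM. These pooled values do not hold within libraries, since Sftpc was lower in the barcodes with Lyz1 in 5 of 6 libraries and Lyz2 in 4 of 6. The macrophage class held 19.2% of the Lyz1 UMIs of tissue and alveolar macrophages 9.05%, against 22.1% in type 2 cells.

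The transcripts of Lyz1 and Lyz2 are alike, and of 410 stretches of 91 bases in the last 500 bases of Lyz1, 14 also occur in Lyz2. A read lying wholly there does not tell the genes apart, and how such reads were counted was not tested. In macrophages Lyz1 ran from 12.7 to 648 CPM in tissue, with tissue wt replicate 5 highest, and stood at 79.5 and 635 CPM in the 2 ntCZC libraries. Tissue wt replicate 5 was also the highest tissue library in the whole-library sums (61.8 CPM against 2.67 to 11.7 CPM in the others), and 319 of its Lyz1 UMIs lay in 59 macrophage barcodes.

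**Figure D5:**
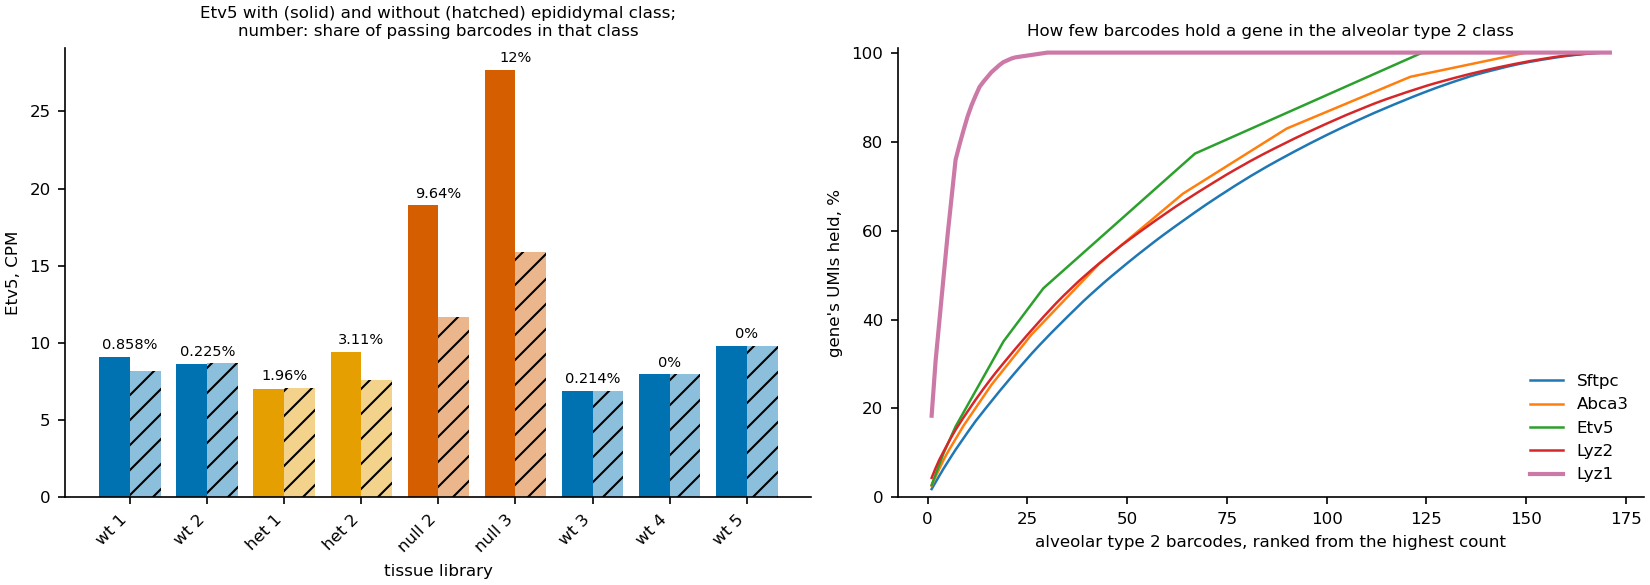
Left, Etv5 CPM in each tissue library with all barcodes (solid) and without the epididymal class (hatched), the share of passing barcodes in that class standing above each pair. Right, the percentage of UMIs of 5 genes held by the highest-ranked of the 171 type 2 barcodes, with the curve of Lyz1 reaching 96.4% at 17 barcodes and that of Sftpc 22.8%.

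The deletion of Nalcn was compared next, null or het against wt over whole tissue libraries with sex as covariate. None of the 10 genes was called in either contrast, and of 17863 genes 0.0112% were called in null against wt and 0 in het against wt. At an unadjusted p under 0.05 there were 1621 and 1367 genes, and DESeq2 called 342 and 73. The median log2 change of the 10 genes was 0.28 for null and -0.01 for het, against -0.02 and -0.03 over all genes. Sftpc was 0.95 higher in null on the log2 scale with an SE of 0.90 (adjusted p = 0.779), and the change was 0.23 without tissue null replicate 3 and 1.62 without tissue null replicate 2. The largest change in het was that of Napsa, at -0.81 (SE 0.31, adjusted p = 0.644).

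Etv5 came nearest to a call. It was at 9.08, 8.67, 6.90, 7.97 and 9.80 CPM in tissue wt replicates 1 to 5, 6.995 and 9.41 CPM in the het libraries, and 18.9 and 27.7 CPM in null replicates 2 and 3. Both null libraries thus lay above all others. The log2 change of null against wt was 1.16 (SE 0.26), with an edgeR adjusted p of 0.304, and it was 1.04 without tissue null replicate 3 and 1.01 to 1.34 as single libraries were left out. DESeq2 called it (1.18, adjusted p = 0.0104).

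The share of epididymal cells was also highest in the null libraries. The epididymal class ranked next after type 2 cells for Etv5, at 53.9 ± 46.1 CPM (SD, n = 6), and was called higher than T cells (log2 change 2.98, SE 0.44, adjusted p = 0.000184). The epididymal class made up 9.64% and 12.0% of passing barcodes in null replicates 2 and 3, 1.96% and 3.11% in the het libraries and 0 to 0.858% in wt. It held 45.2% and 48.9% of the Etv5 UMIs of the null libraries. Without that class, Etv5 was at 11.7 and 15.9 CPM in the null libraries and at 6.92 to 9.80 CPM in wt. The part of epididymal cells in the remaining difference was not tested. In barcodes that did not pass, Etv5 was at 9.20 and 17.1 CPM in the null libraries and at 6.02 to 10.7 CPM in wt. In type 2 cells Etv5 was at 409 and 478 CPM in null and 274, 347 and 496 CPM in wt.

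Within type 2 cells too few barcodes were available for the comparison as planned, since only 2 libraries held 20. With the limit lowered to 10 barcodes after these numbers were seen, 3 wt, 1 het and 2 null libraries entered. All 10 genes were tested in null against wt and none was called. None of all 1173 genes was either (0%, and 24 at an unadjusted p under 0.05). The log2 changes ran from -0.58 (SE 0.46) for Abca3 to 1.22 (SE 1.18) for Lyz1, with 0.28 (SE 0.33) for Sftpc and 0.22 (SE 0.31) for Sftpa1. Without the barcodes of the highest UMI counts 1 of the 10 genes was called, Lyz1, which was then lower in null, beside 14 of 1767 genes. Het had 1 library and was not tested against wt.

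Males and females were compared in the same fit of whole tissue libraries. None of the 10 genes was called, with or without tissue null replicate 3, beside 0.0112% of 17863 genes, with 1268 at an unadjusted p under 0.05 and 140 called by DESeq2. Sftpc was at 60.1 to 563.9 CPM in the 6 libraries labelled male and at 26.6, 137.2 and 286.8 CPM in the 3 labelled female. The largest change was that of Lyz1, at -2.10 in males (SE 1.15, adjusted p = 0.632), where the high tissue wt replicate 5 is among the females, and Slc34a2 was at 1.13 (SE 0.49, adjusted p = 0.632).

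The rest of the surfactant pathway was taken from 4 lists. Of 10 genes of surfactant lipid synthesis, 7 were higher and 1 lower in type 2 than in T cells, with a median log2 change of 2.20. Over all genes of that fit 16.6% were called and 10.0% were higher in type 2 cells. Scd1, the stearoyl-CoA desaturase, was at 1940 against 23.0 CPM (log2 change 6.47, SE 0.63, adjusted p = 1.74e-07), whereas Elovl6, a fatty acid elongase, had 0 UMIs in type 2 and 84 in T cells. Of 6 genes of surfactant processing and secretion, 4 were tested and 2 were higher, Adgrf5, a receptor that restrains surfactant pools (3.96, SE 0.46, adjusted p = 1.67e-06), and Ctsh, a protease of proSP-B (2.98, SE 0.57, adjusted p = 0.000645). With proximal tubule as the reference, Ctsh was at 1.67 and was not called (adjusted p = 0.0692).

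The 5 tested of 6 transcription regulators were called higher in type 2 cells, but some passed the filter only through that class, and the count is a description. Nkx2-1, which controls surfactant protein genes, had 161 UMIs in type 2 and 4 in T cells, and Foxa2 had 35 and 4. Of the 6 clearance genes, 5 were tested in alveolar macrophages and all were higher, with a median of 4.42, in the fit where 65.0% of all genes were called, led by Lyz2 (5.36, SE 0.46, adjusted p = 2.82e-07). In type 2 cells only Lyz2 of the 5 tested was called (5.52, SE 0.82, adjusted p = 4.03e-05). Against ntCZC, where 37.9% of all genes were higher and 25.8% lower in tissue, 8 of the 10 lipid genes were higher (median 1.17). Chpt1, a phosphotransferase of phosphatidylcholine synthesis, led them at 4.08 (SE 0.32). It was not particular to type 2 cells, at 103 CPM there and 54.6 CPM in T cells of the same libraries. In proximal tubule its log2 change against T cells was 4.21 (SE 0.23). Of 5 processing genes tested in tissue against ntCZC 2 were higher and 1 lower, and of 2 regulators 1 was lower. Of 6 clearance genes 1 was higher and 4 were lower (median -1.41), with Lyz2 at -2.66 (SE 0.39). Between genotypes and sexes none of the genes of the 4 lists was called.

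Over 22 classes, and with the 10 surfactant genes and the class markers left out of the search, the gene whose level was most like that of each surfactant gene (Pearson's r of log2(CPM + 1), a description over classes that share libraries) was itself highest in type 2 cells in all 10 cases. Each surfactant gene was also highest there, so this measure selects genes that peak in that class, and the result is no support. Fabp12 was the most like Lamp3 (r = 0.994) and Sftpc (r = 0.952), and Myh7 the most like Sftpa1 (r = 0.949), Sftpb (r = 0.953) and Sftpd (r = 0.952). Both were low in type 2 cells, at 32.0 and 13.4 CPM, which are means taken on the log2 scale and turned back to CPM. Lyz2 was the most like Lyz1 (r = 0.850), Secisbp2l the most like Abca3 (r = 0.796) and Ahcyl2 the most like Napsa (r = 0.720). Among the surfactant genes themselves, r was 0.980 between Sftpa1 and Sftpb and 0.959 between Sftpc and Lamp3. The remaining pairs were Slc34a2 with 9330182L06Rik (r = 0.922) and Etv5 with Gm26797 (r = 0.767). Both of these matches were also low in type 2 cells, at 17.2 and 7.05 CPM.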

How the data were processed

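Cells were profiled with 10x 3′ chemistry. The authors used Cell Ranger (the matrix files name version 3.0.2, the submitters' processing notes 2.1.1) with the mm10 genome, and the filtered matrices they deposited hold raw UMI counts, 1 value for each gene in each barcode. From these counts, sums per library, or per library and class with at least 20 barcodes, were tested with the edgeR (4.0.16) quasi-likelihood test in R 4.3.3 (TMM scaling, filterByExpr, sex as covariate where it could be estimated, Benjamini-Hochberg adjustment over all genes tested at 0.05). Every adjusted p comes from this test unless DESeq2 (1.42.0) is named. Whole-library sums used all barcodes, and barcodes were filtered for classes only. Values and figures were made with Python 3.11.15, SciPy 1.17.1 and matplotlib 3.10.9. Intervals are exact at 95%, and a count of 0 was given an upper limit of 3 counts. Neither covers more than counting error.

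The genes, the class markers and the 4 pathway lists were chosen with earlier results of these data known. Named genes were the 10 surfactant genes, up to 2 called genes per pathway list and comparison with the largest changes, and 1 most alike gene for each surfactant gene. Coordinates came from GENCODE vM21 (30934 of 31053 identifiers matched) and promoters from RefSeq. Of 25 replicate pairs the lowest chi-square was 4.11 per degree of freedom, so none was merged. The fits were tested on simulated data. Alternatives were RLE scaling, no filter on low counts, DESeq2, other gates, other barcode filters, left-out libraries, fits without sex and a replicate block.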

Additional observations from a re-analysis of the deposited data

Results flagged for a closer look

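In the groups of 4 or 5 libraries, 4 of 20 gene and group combinations had a library far from the rest. The rule flags about 1 in 20 for normal and independent values. The genes here share libraries and some groups hold mostly 0, so no excess is read from the count. Sftpc in tissue wt replicate 2 was at 564 CPM and Sftpd in the same library at 11.8 CPM, the library that also held 79 of the 171 type 2 barcodes. Lyz1 in tissue wt replicate 5 was at 61.8 CPM. Sftpa1 in ntCZC het replicate 3 was at 0.57 CPM, which is 1 UMI, while the other het libraries had none. A single UMI among libraries at 0 always stands apart in this way and carries no information.

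The pair of tissue libraries without a group entered no comparison, and both carried surfactant transcripts above the highest ntCZC library. In the male and the female library, Sftpc was at 656 and 333 CPM, Sftpa1 at 81.8 and 46.2 CPM, Sftpb at 39.5 and 20.2 CPM, Sftpd at 19 and 12.6 CPM, and Slc34a2 at 11.4 and 11.1 CPM. Lamp3 was above the highest ntCZC value of 2.69 CPM in the male library, at 3.87 CPM.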

How the results depend on the processing

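The count of surfactant genes called was within 1.5 times its main value in 52 of 58 alternatives other than left-out libraries. The exceptions were DESeq2 for null against wt (1, Etv5, against 0), type 2 cells of null against wt without the barcodes of the highest UMI counts (1, Lyz1, against 0, with 14 of 1767 genes called), B cells of tissue against ntCZC with no filter on low counts (4 against 1, with 3116 of 18967 genes called), monocytes with no filter (7 against 1, with 4663 of 17210) or a loose gate (2 against 1, with 2428 of 6621), and the other classes against T cells with no filter (36 against 21). With single libraries left out, the counts ran from 7 to 9 for tissue against ntCZC, 1 to 3 for monocytes and 18 to 24 for the other classes. Of all genes, the main fits called 63.8% for tissue against ntCZC, 36.4% for monocytes and 31.8 to 70.3% for the other classes. In monocytes 3 genes were called without ntCZC het replicate 1 (beside 1979 of 6053 genes), het replicate 2 (2003 of 6077) or null replicate 1 (2010 of 6061). Without tissue het replicate 2 (1987 of 5804), null replicate 2 (2021 of 5819), null replicate 3 (1992 of 5789) or wt replicate 3 (1887 of 5814), 2 were called. Without the barcodes of the highest UMI counts, 3 changes against T cells turned in direction, Napsa in gastric cells to 1.72 and in epididymal cells to 0.96, and Sftpc in epididymal cells to 1.03. The cause was not tested in any of these.

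Of 19 same-numbered pairs of libraries, some of them of different genotypes, 3 correlated over 0.1. Such a correlation cannot decide whether a pair came from the same animal. Some tissue and ntCZC libraries of the same genotype and number shared sex and age, such as wt replicate 1 (male, 571 days) and het replicate 2 (male, 551 days). The main fits did not pair them. With the replicate block in place of sex, 7 surfactant genes and 5290 genes in all (6813 without it) were called in tissue against ntCZC, and 0 surfactant genes in null or het against wt. DESeq2 called 342 genes in null against wt, 73 in het against wt and 140 between sexes, where edgeR called 2, 0 and 2. The block could not be fitted for type 2 cells of null against wt, leaving out a library of type 2 against T cells would have left 1 library, and the strict gate left too few libraries for the loop and distal tubule class.

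The type 2 class had 171 barcodes in 8 libraries, which limits the precision of its levels.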
